A study of Saccharomyces cerevisiae with 9 samples.

Results

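The genotype by medium interaction asks, for each gene, whether yeast lacking IME4 answered a change of medium as wild-type yeast did. It was computed from all 9 arrays of the series. They fall into 4 groups by title: ime4-/- in sporulation medium (SPO, 2 arrays), ime4-/- in rich medium (YPD, 2 arrays), WT in SPO (3 arrays) and WT in YPD (2 arrays). Both genotypes are of the strain SK1, a laboratory yeast that sporulates fast. YPD holds yeast extract, peptone and glucose, and SPO holds 1% potassium acetate, in which cells had spent 4 h. The design text calls the repeats biological replicates, so p-values measure the spread between such repeats. The sources used here give neither ploidy, nor the extent of the deletion, nor the number of independent mutant clones.

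IME4 encodes an RNA adenosine methyltransferase that acts on messenger RNA during the early hours of sporulation. When yeast loses glucose and nitrogen and is given acetate, it stops making ribosomes, turns on the enzymes that burn acetate and fat and rebuild sugar, and, in diploid cells that carry both mating types, starts meiosis through IME1. A cell with 1 mating type does not start meiosis in this way, because its RME1 repressor is active.

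Each value is an RMA intensity of a probe set, taken here on the log2 scale. The response of a genotype is its mean in SPO minus its mean in YPD, and the interaction is the ime4-/- response minus the WT response. A positive interaction therefore means a larger rise or a smaller fall in ime4-/-, and a negative one a smaller rise or a larger fall. The test was limma over all 9 arrays, two-sided, with Benjamini-Hochberg adjustment over 5359 probe sets of 5311 genes and a threshold of 0.05, and all adjusted p below come from it. The median SE of the interaction was 0.09 log2. The background level of an array, the 95th percentile of 1413 probe sets of another species, lay between intensities of 8.1 and 9.64.

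The labels were first checked on IME4 and the mating-type transcripts. IME4 read 5.8 and 4.4 in ime4-/- in SPO and 4.9 and 5.4 in ime4-/- in YPD, against 141, 140 and 137 in WT in SPO and 40.9 and 40.8 in WT in YPD. It was at background on all 4 ime4-/- arrays. The a1 transcript (HMRA1 probe set) read 6.6, 9.7, 3.8 and 3.1 on the ime4-/- arrays and 262 to 448 on the WT arrays. The alpha1 transcript (HMLALPHA1 probe set, whose probes are shared with other sequences) read 206 to 481 on the ime4-/- arrays and 14.5 to 18.5 on the WT arrays. The ime4-/- arrays thus carried the transcripts of alpha cells. The WT arrays had a1 high and alpha1 low, and they also carried transcripts of a-specific mating genes. On these markers they carried the transcripts of a cells, and neither genotype had both a1 and alpha1 high. The alpha-specific gene STE3 read 15.1 to 27.9 on the WT arrays and 254 to 988 on the ime4-/- arrays. The labels do not give the mating type. STE2 read 343 to 1010 and MFA2 1462 to 1672 on the WT arrays, against 7.6 to 34.3 and 7.6 to 53.6 on the ime4-/- arrays. Over 7 a-specific genes the median difference, ime4-/- minus WT, was -2.98 log2 in YPD and -2.08 in SPO. Genotype and mating-type pattern cannot be told apart in any value below.

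The medium changed most of the transcriptome in both genotypes, and the genotypes differed in how far it did so. The response passed the threshold for 86.0% of the sets in ime4-/- (44.0% rose and 42.0% fell) and for 90.0% in WT (46.9% rose and 43.1% fell). The difference between ime4-/- and WT passed it for 73.4% in SPO (34.1% higher in ime4-/-, 39.4% lower) and for 40.0% in YPD (21.3% higher, 18.7% lower). The interaction passed the threshold for 3433 of 5359 probe sets, 64.1%: 1579 (29.5%) had the higher response in ime4-/- and 1854 (34.6%) the lower. With so large a share called, passing says little about any gene, and size and shape are more telling. Every count of positive and negative list members below is to be read against the shares of 29.5% and 34.6%. At least 2-fold differences between the responses, past the threshold, were found in 535 probe sets (9.98%), and these were sorted by comparing the smaller response with the larger. In 323 (6.03%) the ime4-/- response kept the WT direction with more than 0.25 of its size and is called damped. In 94 (1.75%) it was within 0.25 of the WT size on either side of 0 and is called lost. In 26 (0.485%) the larger response was that of ime4-/- in the WT direction, called stronger, and in 25 (0.467%) WT had no more than 0.25 of the ime4-/- response, called gained. In 67 (1.25%) both genotypes changed past the threshold in opposite directions and the smaller change had more than 0.25 of the size of the larger, called reversed. Some lost and gained sets also had small opposite changes past the threshold. IME4 itself is among the 94 lost sets.

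**Figure D1:**
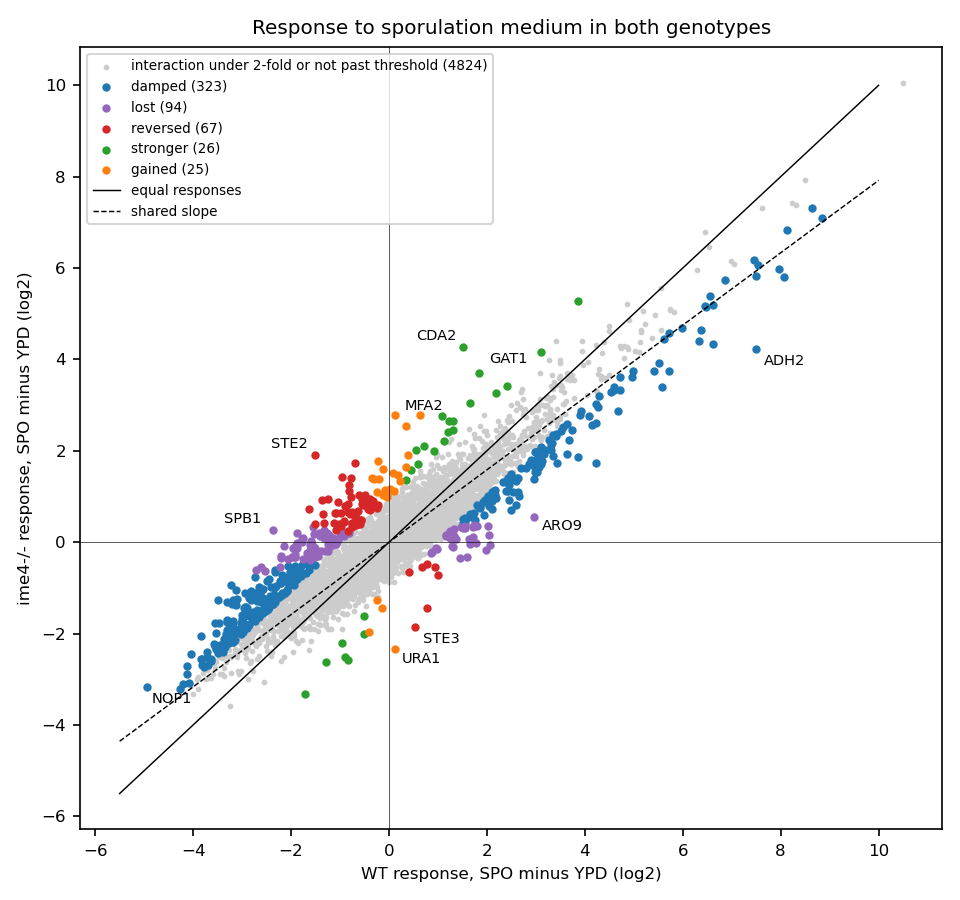
Response of each of 5359 probe sets to SPO relative to YPD, ime4-/- on the vertical axis and WT on the horizontal axis, both in log2. Colours mark the 5 shapes, the solid line equal responses and the dashed line the slope of 0.79 shared by all sets. Most coloured points lie between the solid line and the horizontal axis, where the ime4-/- response is the smaller, and the reversed sets lie mainly in the upper left part.

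Reversal ran mainly one way. Of the 67 reversed sets, 60 rose in ime4-/- and fell in WT. In all 67, no SPO array overlapped a YPD array of the same genotype. The limits of the class, applied to the same arrays, favour such a separation, so it adds no support. Opposite responses without overlap were met in 6.85% of all tested sets when the size of the interaction is ignored. Among those 367 sets the directions were nearly even, with 191 rising in ime4-/- and falling in WT.

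For most of the 535 sets the genotypes stood apart in SPO rather than in YPD. The difference between the genotypes was at least 2 times larger in SPO than in YPD for 382 sets, at least 2 times larger in YPD for 50, and between these for 103. This depended on the direction of the response. Of the 191 damped falls, 170 differed mainly in SPO and 3 in YPD. Of the 132 damped rises, 82 differed mainly in SPO and 17 in YPD. In the stronger class, 10 differed mainly in SPO and 9 in YPD.

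**Figure D2:**
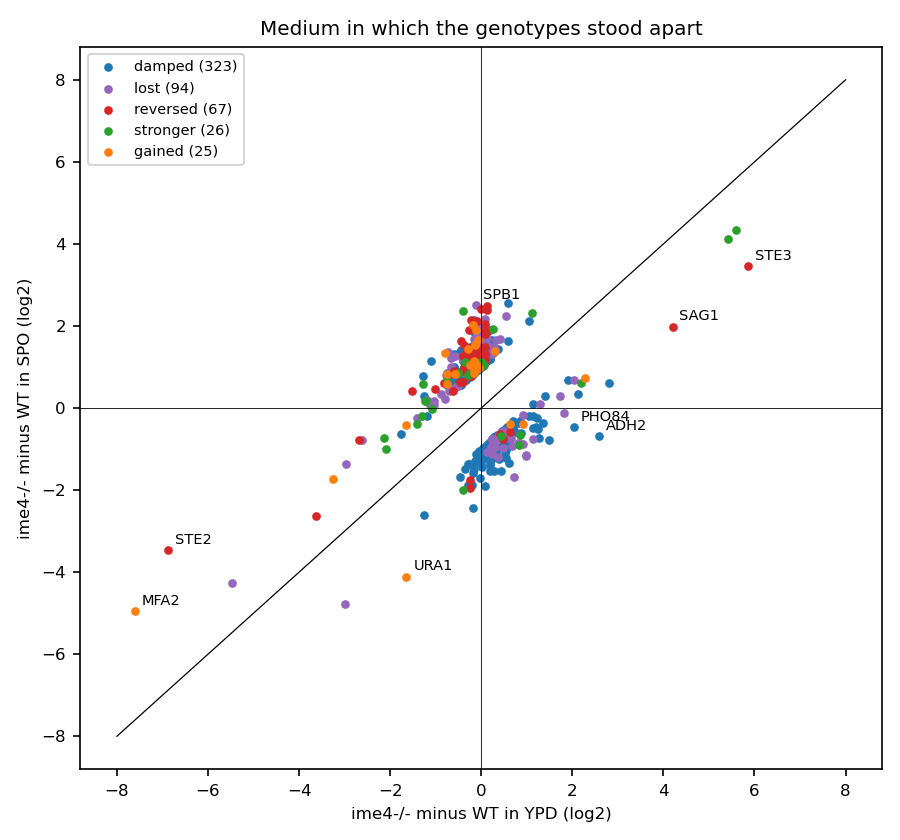
Difference between ime4-/- and WT in SPO (vertical axis) against the same difference in YPD (horizontal axis), in log2, for the 535 sets of the 5 shapes. The line marks equal differences, where the interaction is 0. SPB1 and most other points lie near 0 on the YPD axis, ADH2 and PHO84 nearer to 0 on the SPO axis than on the YPD axis, and STE2, MFA2, STE3 and SAG1 far out on both.

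The largest block of differing genes was the machinery that builds ribosomes, which fell in WT and fell less, stayed or rose in ime4-/-. Of 48 genes of the small subunit processome, which cuts and folds the RNA of the small subunit, 46 had a positive interaction past the threshold and none a negative one, where 29.5% of all tested sets had a positive one. Their median response was -1.40 in ime4-/- and -2.48 in WT, and the median interaction was 1.24, against -0.05 over all tested sets. Of 60 assembly factors of the large subunit 59 were positive and none negative, with medians of -1.37 in ime4-/- and -2.51 in WT. These 2 lists held 2.02% of the tested sets but 28.8% of the damped falls, 25.8% of the lost falls and 13.4% of the reversed sets.

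SPB1, a methyltransferase of large subunit assembly, read 420 and 436 in ime4-/- in SPO and 352 and 357 in ime4-/- in YPD, against 67.7, 83.5 and 74.2 in WT in SPO and 382 and 386 in WT in YPD. The WT arrays in SPO stood apart from the other 6, which lay within a narrow range. The interaction was 2.63 (SE 0.11, adjusted p = 3.83e-07), from a response of 0.27 in ime4-/- and -2.36 in WT. SDA1, a factor of large subunit assembly, had the same shape, with 0.20 in ime4-/- and -1.87 in WT, as had ENP2 of the small subunit, with -0.12 and -1.95. ERB1, which acts in the maturation of the large subunit, responded by -0.55 in ime4-/- and -2.62 in WT.

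Several RNA helicases of ribosome assembly moved in opposite directions. PRP43, a helicase that also releases spliced introns, read 1641 and 1529 in ime4-/- in SPO and 958 and 956 in ime4-/- in YPD, against 292, 271 and 288 in WT in SPO and 879 and 866 in WT in YPD. It was thus highest in ime4-/- in SPO and lowest in WT in SPO, with no overlap between any groups. Its response was 0.73 in ime4-/- and -1.62 in WT (interaction 2.35, SE 0.08, adjusted p = 1.50e-07). MAK5 of the large subunit read 2927 and 3003 in ime4-/- in SPO and 1131 and 1088 in ime4-/- in YPD, against 630, 719 and 651 in WT in SPO and 1322 and 1271 in WT in YPD. ROK1, a helicase of the small subunit, rose by 0.91 in ime4-/- and fell by 1.36 in WT, and ECM16, another of the small subunit, rose by 0.95 and fell by 1.25. UTP7, a processome protein, rose by 0.64 in ime4-/- and fell by 1.08 in WT, and BUD22, which acts in small subunit processing, rose by 1.24 and fell by 0.82.

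REA1, a motor that strips assembly factors from the large subunit, was gained. It read 5833 and 6119 in ime4-/- in SPO and 989 and 1050 in ime4-/- in YPD, against 1484, 1464 and 1465 in WT in SPO and 1147 and 1150 in WT in YPD. Both genotypes rose, ime4-/- by 2.55 and WT by 0.36. RIO1, a kinase of late small subunit maturation, rose by 1.41 in ime4-/- and fell by 0.34 in WT. At the other end, NOP1, the methyltransferase of box C/D small nucleolar RNPs, had the responses -3.18 in ime4-/- and -4.95 in WT. RSA4, which works with Rea1, fell by 1.31 in ime4-/- and 3.31 in WT. Of both lists 3 members did not pass, among them these: TIF6, which keeps the subunits apart, had an interaction of -0.03 (adjusted p = 0.752), and RRP7 one of -0.14 (adjusted p = 0.314, but 0.0392 without replicate 2 of ime4-/- in YPD).

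RNA polymerase I, which makes ribosomal RNA, was split. Of 16 measured genes 10 were positive and 2 negative (median interaction 0.81). RPA12, a small subunit of the enzyme, fell by 1.26 in ime4-/- and 3.49 in WT, and the largest subunit gene RPA190 by 1.12 and 2.73. RRN5, part of the upstream activating factor, went the other way, with -0.34 in ime4-/- and 0.59 in WT. RNA polymerase III, which makes transfer RNA, had 9 positive and 3 negative of 19 genes. That is 63.2% past the threshold, against 64.1% of all tested sets. Its median interaction of -0.01 turned positive with quantile normalization and with centring. Its repressor MAF1 rose by 1.29 in ime4-/- and 2.05 in WT.

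Most ribosomal protein genes fell less in ime4-/-. Of 75 measured genes of the large subunit 70 were positive and 1 negative, with medians of -1.20 in ime4-/- and -2.05 in WT. Of 52 of the small subunit 47 were positive and 1 negative, with a median interaction of 0.75. In all, 35 of these genes passed 2-fold, 33 as damped and 2 as lost, and none was reversed. RPL22A read 1521 and 1560 in ime4-/- in SPO and 5106 and 5239 in ime4-/- in YPD, against 534, 553 and 584 in WT in SPO and 5584 and 5488 in WT in YPD. The genotypes were alike in YPD to within 0.10 log2 and differed by 1.47 in SPO. RPS26B fell by 1.37 in ime4-/- and 3.13 in WT. Some genes did not pass the interaction threshold: RPL9B fell by 1.74 in ime4-/- and 1.75 in WT (interaction adjusted p = 0.959), and RPS20 fell by 0.44 in both.

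The genes that feed translation showed the same shift, with exceptions. Of 19 aminoacyl-tRNA synthetase genes 17 were positive and none negative. DPS1, the aspartyl enzyme, was reversed, rising by 0.79 in ime4-/- and falling by 0.90 in WT, while HTS1, the histidyl enzyme, fell by 1.09 and 1.01 (adjusted p = 0.339). Of 33 translation factors 22 were positive and 1 negative. TIF3, an initiation factor, responded by 0.19 in ime4-/- and -1.54 in WT, and TIF4632, a scaffold of the initiation complex, by -0.63 in both. SRO9, an RNA-binding protein linked to translation, had the largest interaction of the damped falls among genes above background on all arrays whose probe sets have no shared-sequence ending (2.30). It read 277 and 272 in ime4-/- in SPO and 501 and 544 in ime4-/- in YPD, against 57.0, 66.3 and 64.4 in WT in SPO and 560 and 607 in WT in YPD.

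Mitochondrial ribosomal proteins did not join the cytosolic ones. Of 66 measured genes 28 had a negative interaction and 7 a positive one, where 34.6% of all tested sets were negative and 29.5% positive. The share of this list past the threshold, 53.0%, was under the 64.1% of all tested sets. The median response was -1.14 in ime4-/- and -0.94 in WT. MRPL7 fell by 2.36 in ime4-/- and 1.63 in WT, and MRPS12 by 1.27 and 0.52. MRPL44 was an exception, responding by 0.20 in ime4-/- and -0.82 in WT, a difference that lay in YPD (-0.80) more than in SPO (0.22).

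**Figure D3:**
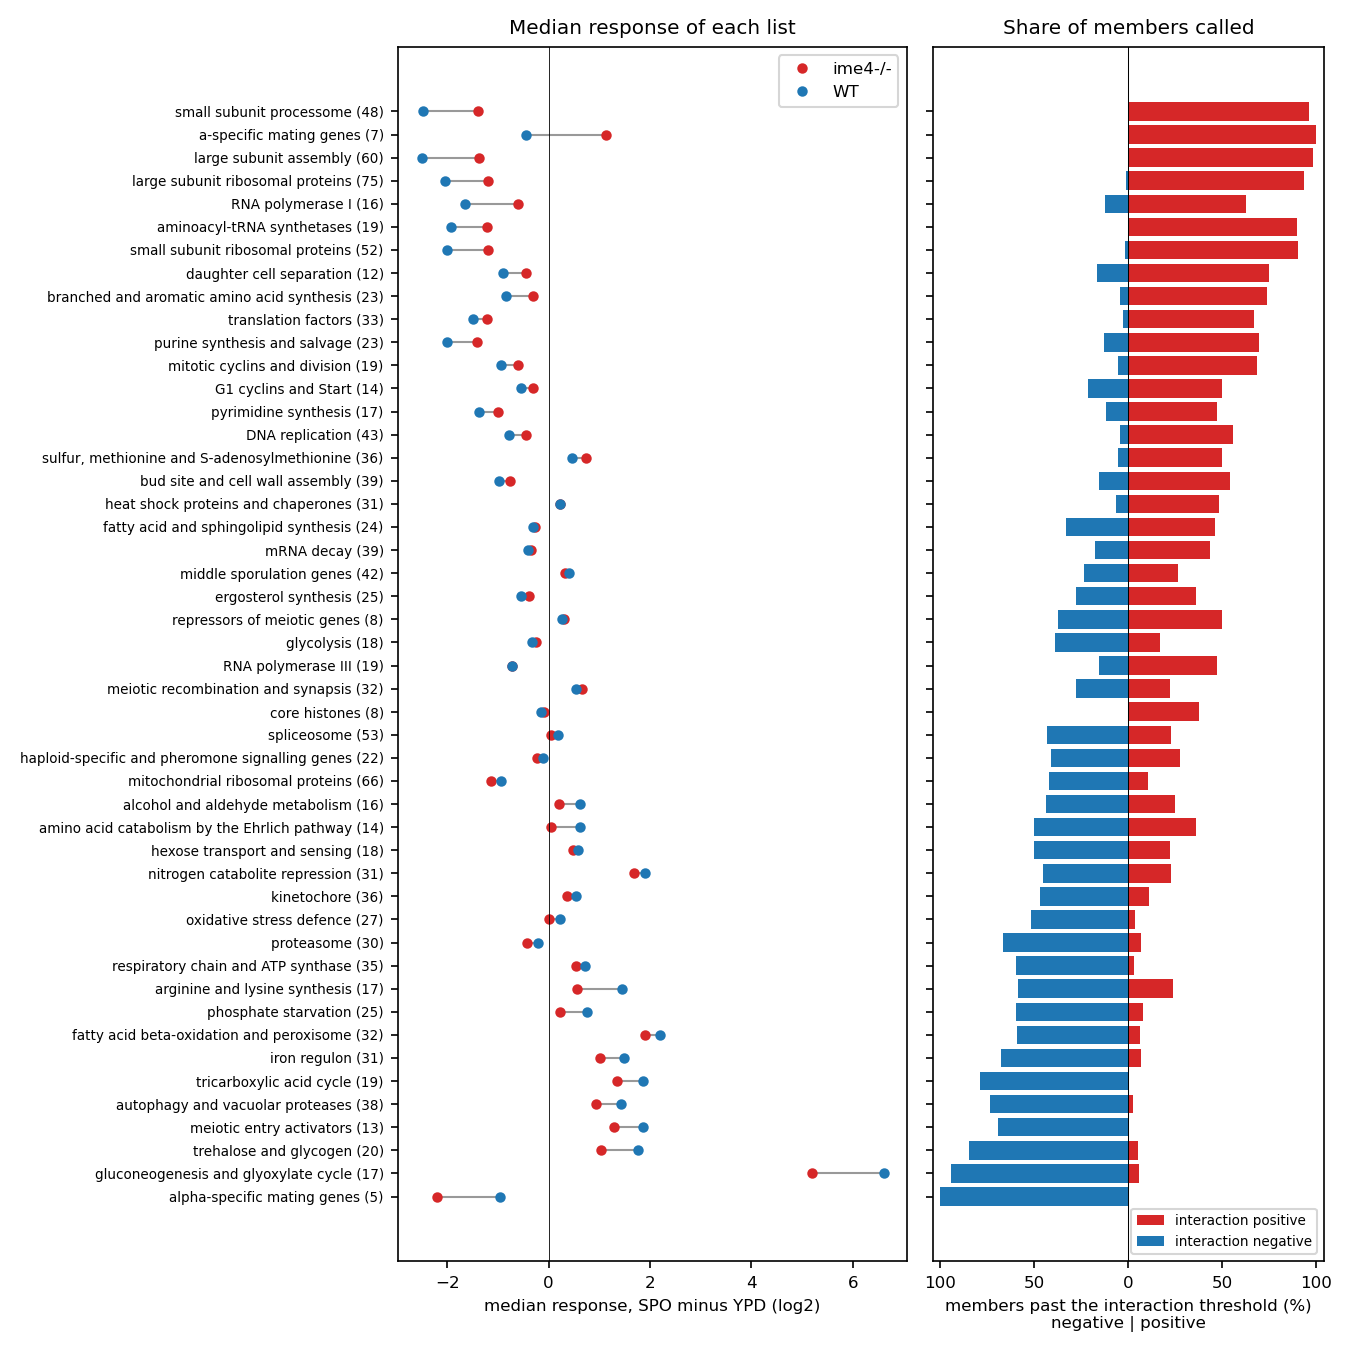
Left, median response to SPO of each gene list, ime4-/- and WT, in log2, with the number of measured genes in brackets. Right, the share of each list past the interaction threshold, positive to the right and negative to the left. Lists are ordered by median interaction, with ribosome assembly and a-specific genes at the top and gluconeogenesis and alpha-specific genes at the bottom; 29.5% of all tested sets were positive and 34.6% negative.

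Among the rises, most enzymes that use acetate rose less in ime4-/-, and part of that lay in YPD. Of 17 genes of sugar synthesis and the glyoxylate cycle 16 had a negative interaction and 1 a positive one, where 34.6% of all tested sets were negative. Their median response was 5.20 in ime4-/- and 6.61 in WT, and 12 were damped past 2-fold. ADH2, the alcohol dehydrogenase that glucose represses, had the largest negative interaction of all tested genes (-3.27, SE 0.15, adjusted p = 4.79e-07). It read 5181 and 5282 in ime4-/- in SPO and 282 and 276 in ime4-/- in YPD, against 8358, 8318 and 8593 in WT in SPO and 53.9 and 39.9 in WT in YPD. In YPD it was 2.59 log2 higher in ime4-/- and in SPO 0.69 lower, so that the larger share of its interaction lay in YPD.

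The enzymes of sugar synthesis shared this pattern to varying degrees. FBP1, the fructose bisphosphatase, read 1221 and 1249 in ime4-/- in SPO and 59.4 and 62.1 in ime4-/- in YPD, against 2024, 2224 and 2150 in WT in SPO and 22.7 and 20.6 in WT in YPD. PCK1, the entry enzyme of gluconeogenesis, was 1.36 higher in ime4-/- in YPD and 0.37 lower in SPO, and MLS1, malate synthase, 1.20 higher and 0.46 lower. CAT8, the activator of these genes, differed mainly in SPO: it rose by 3.92 in ime4-/- and 5.53 in WT. MDH2, the cytosolic malate dehydrogenase, was the 1 positive member, rising by 5.22 in ime4-/- and 4.85 in WT.

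FDH1, formate dehydrogenase, rose by 5.81 in ime4-/- and 8.07 in WT, and its ime4-/- arrays in SPO (797 and 793) lay far under those of WT (4276, 4360 and 4360). Of 19 genes of the tricarboxylic acid cycle 15 were negative and none positive, with medians of 1.34 in ime4-/- and 1.86 in WT. KGD1, of the oxoglutarate dehydrogenase complex, rose by 0.75 in ime4-/- and 1.85 in WT, while SDH3, of succinate dehydrogenase, had an interaction of -0.01 (adjusted p = 0.951). Of 35 genes of the respiratory chain and ATP synthase 21 were negative and 1 positive, and the internal NADH dehydrogenase gene NDI1 rose by 0.41 in ime4-/- and 1.51 in WT. Beta-oxidation and peroxisome genes had 19 negative and 2 positive of 32, with 1 damped past 2-fold: PXA1, which carries fatty acids into the peroxisome, rose by 2.35 in ime4-/- and 3.35 in WT.

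Most storage carbohydrate genes had the lower response in ime4-/-. Of 20 trehalose and glycogen genes 17 were negative and 1 positive, with 3 damped and 1 lost past 2-fold, with medians of 1.04 in ime4-/- and 1.76 in WT. GLG2, a glycogenin that primes glycogen, responded by 0.08 in ime4-/- and 1.63 in WT, and its partner GLG1 by 0.49 and 1.75. GSY2, the main glycogen synthase, rose by 1.02 in ime4-/- and 2.03 in WT, while TPS3, a subunit of trehalose synthase, had -0.22 and -0.24. Autophagy and vacuolar protease genes had 28 negative and 1 positive of 38. The scramblase gene ATG9 rose by 1.03 in ime4-/- and 2.17 in WT, and the protease gene PRB1 by 0.78 and 1.85.

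The phosphate transporters PHO84 and PHO89 and the phosphatase PHO5 differed mainly in YPD. PHO84, the high-affinity phosphate transporter, read 460 and 495 in ime4-/- in SPO and 137 and 150 in ime4-/- in YPD, against 695, 643 and 633 in WT in SPO and 38.2 and 32.3 in WT in YPD. The ime4-/- level in YPD was 2.03 log2 higher, and that in SPO 0.46 lower. PHO89, a sodium-coupled transporter, was 2.80 higher in ime4-/- in YPD and 0.61 higher in SPO. PHO5, the secreted acid phosphatase, read 45.5 and 52.9 in ime4-/- in SPO and 63.2 and 59.9 in ime4-/- in YPD, against 55.9, 53.9 and 50.3 in WT in SPO and 16.3 and 18.9 in WT in YPD. Only WT in YPD stood apart for this gene, and the WT rise of 1.60 had no counterpart in ime4-/-, where it fell by 0.33. Of 25 phosphate genes 15 were negative and 2 positive, and of these 17 the genotypes stood apart mainly in SPO for 10, mainly in YPD for 6 and in both for 1.

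Amino acid lists held both losses and changes the other way. Arginine and lysine synthesis had 4 positive and 10 negative of 17 genes, with 4 lost, 2 damped, 1 reversed and 1 stronger. The 4 lost genes were all of lysine synthesis, while ARG7 of arginine synthesis rose by 2.21 in ime4-/- and 1.12 in WT (interaction 1.09). Amino acid breakdown by the Ehrlich pathway had 5 positive and 7 negative of 14, with 3 lost and 1 damped. LYS9, which makes saccharopine, read 1626 and 1614 in ime4-/- in SPO and 1688 and 1681 in ime4-/- in YPD, against 3651, 3437 and 3571 in WT in SPO and 855 and 849 in WT in YPD. The ime4-/- arrays lay between the WT media and were nearly level, with a response of -0.06 against 2.06 in WT (interaction -2.12, SE 0.06, adjusted p = 1.50e-07). LYS20, homocitrate synthase, fell by 0.34 in ime4-/- and rose by 1.45 in WT, and LYS12, homoisocitrate dehydrogenase, fell by 0.22 and rose by 0.88. ARO9, the aromatic aminotransferase, read 226 and 273 in ime4-/- in SPO and 166 and 170 in ime4-/- in YPD, against 806, 825 and 772 in WT in SPO and 97.8 and 107 in WT in YPD. ARO10, the decarboxylase of the next step, responded by -0.17 in ime4-/- and 1.98 in WT, and BAT2, the cytosolic branched-chain aminotransferase, by -0.04 and 1.66.

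Synthesis of aromatic and branched amino acids leaned the other way, with 17 positive and 1 negative of 23 genes. That 1 is BAT2, which is also in the breakdown list. ARO1, the pentafunctional enzyme of the shikimate pathway, was reversed, rising by 0.67 in ime4-/- and falling by 0.84 in WT. ARO4, its entry enzyme, fell by 2.21 in ime4-/- and 3.27 in WT. THR1, homoserine kinase of threonine synthesis, responded by -0.61 in ime4-/- and -2.71 in WT. In the sulfur list 18 of 36 genes were positive and 2 negative: CYS3, which makes cysteine, rose by 0.84 in ime4-/- and fell by 0.83 in WT, and HOM3, aspartate kinase, fell by 0.49 and 1.77.

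A small set of nutrient genes responded more in ime4-/-. GAT1, an activator of nitrogen catabolite genes, read 608 and 599 in ime4-/- in SPO and 50.6 and 41.9 in ime4-/- in YPD, against 387, 405 and 408 in WT in SPO and 106 and 117 in WT in YPD. It was 1.27 lower in ime4-/- in YPD and 0.60 higher in SPO. MEP2, the ammonium permease, rose by 5.28 in ime4-/- and 3.85 in WT. The nitrogen list as a whole went both ways, with 7 positive and 14 negative of 31 genes. That is 67.7% past the threshold, against 64.1% of all tested sets. In this list GDH2, which releases ammonium from glutamate, rose by 2.25 in ime4-/- and 3.68 in WT. SNZ1, of pyridoxine synthesis, rose by 2.65 in ime4-/- and 1.23 in WT. BNA1, of NAD synthesis, was gained, with 2.79 in ime4-/- and 0.64 in WT. FRE1, a metal reductase, fell by 2.57 in ime4-/- and 0.83 in WT, and PTR2, the peptide transporter, by 2.01 and 0.51. The iron regulon, which includes FRE1, had 21 negative and 2 positive of 31 genes, with 3 damped, 2 lost, 1 reversed and 1 stronger: the siderophore carrier gene SIT1 rose by 1.00 in ime4-/- and 2.65 in WT, and ARN1 by 0.34 and 1.80.

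URA1, the dihydroorotate dehydrogenase of pyrimidine synthesis, fell in ime4-/- and rose slightly in WT. It read 131 and 136 in ime4-/- in SPO and 664 and 686 in ime4-/- in YPD, against 2269, 2349 and 2255 in WT in SPO and 2047 and 2169 in WT in YPD. Its response was -2.34 in ime4-/- and 0.12 in WT (interaction -2.46, SE 0.07, adjusted p = 1.49e-07). The rest of the pyrimidine list did not follow it: 8 of 17 genes were positive and 2, URA1 and URA8, negative, and the CTP synthase gene URA7 fell by 3.10 in ime4-/- and 4.21 in WT. Purine genes had 16 positive and 3 negative of 23, among them GUA1, GMP synthase, which fell by 1.99 in ime4-/- and 3.20 in WT.

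**Figure D4:**
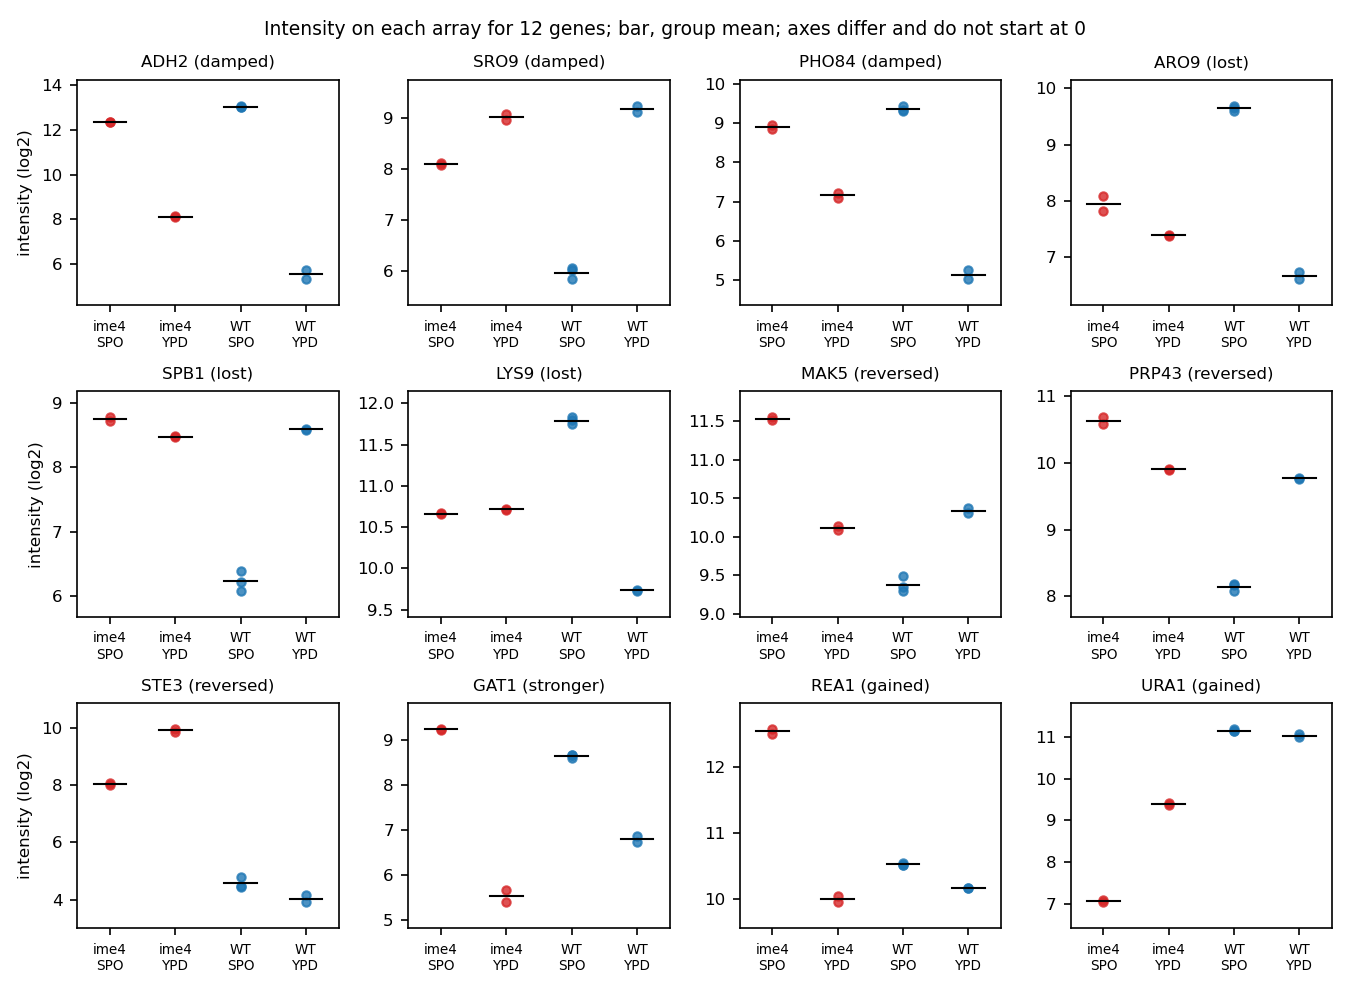
Intensity on a log2 scale on each array for 12 genes of the 5 shapes, in ime4-/- (SPO, YPD) and WT (SPO, YPD). Points are arrays and bars group means; vertical axes differ between panels and do not start at 0. SPB1 is low in WT in SPO only, and PRP43 is lowest in WT in SPO and highest in ime4-/- in SPO. LYS9 is level in ime4-/-, and URA1 is lowest in ime4-/- in SPO.

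For genes that mark the mating type, the median difference, ime4-/- minus WT, was nearer to 0 in SPO than in YPD. It was 5.43 in YPD and 3.46 in SPO for alpha-specific genes, and -2.98 and -2.08 for a-specific genes. Of the alpha-specific genes 3 were stronger, so they fell in both genotypes, and 2 were reversed. All 5 alpha-specific genes had a negative interaction and all 7 a-specific genes a positive one (6 of 7 with quantile normalization). STE3, the receptor for a-factor, read 254 and 272 in ime4-/- in SPO and 988 and 925 in ime4-/- in YPD, against 27.9, 22.6 and 21.6 in WT in SPO and 17.9 and 15.1 in WT in YPD. It fell by 1.86 in ime4-/- and rose by 0.54 in WT, yet remained higher in ime4-/- in both media. SAG1, the alpha-agglutinin, fell by 1.44 in ime4-/- and rose by 0.77 in WT. AFB1, an a-factor barrier gene, fell by 2.61 in ime4-/- and 1.29 in WT, and the alpha-factor gene MF(ALPHA)2 had the responses -3.32 and -1.72.

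Of the a-specific genes, STE2, the receptor for alpha-factor, read 29.3 and 34.3 in ime4-/- in SPO and 9.4 and 7.6 in ime4-/- in YPD, against 343, 351 and 351 in WT in SPO and 1010 and 972 in WT in YPD. With 1 of 2 ime4-/- arrays in YPD above background, the size of its interaction (3.42, or 3.29 with background as the floor) is uncertain. The a-factor gene MFA2 rose at least 5.82-fold in ime4-/- relative to background, and by 0.12 log2 in WT, where it read 1462 to 1672 in both media. BAR1, a protease that destroys alpha-factor, responded by 0.02 in ime4-/- and -1.58 in WT. The second a-factor gene MFA1 had a positive interaction of 0.26 (adjusted p = 0.0119) that was negative, at -0.18 (adjusted p = 0.0555), with quantile normalization. The 22 haploid-specific and pheromone signalling genes went both ways, with 6 positive and 9 negative. That is 68.2% past the threshold, against 64.1% of all tested sets.

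Some daughter-cell genes of wall separation were far lower in ime4-/- in YPD. Of 12 genes 9 were positive and 2 negative, and among these the genotypes stood apart mainly in SPO for 3, mainly in YPD for 3 and in both for 5. SCW11, a wall glucanase, was 2.62 lower in ime4-/- in YPD and 0.78 lower in SPO, and its response was 0.09 in ime4-/- and -1.75 in WT. DSE2, another wall enzyme of daughter cells, rose by 0.40 in ime4-/- and fell by 0.60 in WT. It remained lower in ime4-/- in both media, by 3.62 in YPD and 2.62 in SPO.

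Regulators of meiotic entry rose less in ime4-/-, while the repressors of meiotic genes went both ways. Of 13 activators and their partners 9 had a negative interaction and none a positive one, with medians of 1.29 in ime4-/- and 1.86 in WT. IME1, the master regulator, read 138 and 137 in ime4-/- in SPO and 36.7 and 35.9 in ime4-/- in YPD, against 393, 375 and 419 in WT in SPO and 32.0 and 31.6 in WT in YPD. The kinase gene IME2 rose by 2.13 in ime4-/- and 3.30 in WT, and the translational repressor gene RIM4 by 1.12 and 2.44. PHO92, which encodes a reader of methylated RNA, rose in both relative to background, at least 5.09-fold in ime4-/- and at least 9.33-fold in WT. RIM15, a kinase of nutrient signalling, had 1.34 and 1.21 (adjusted p = 0.441).

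Of 8 repressor genes 4 were positive and 3 negative, with a median interaction of 0.05 and median responses of 0.30 in ime4-/- and 0.27 in WT. SUM1, a repressor of middle sporulation genes, read 865 and 991 in ime4-/- in SPO and 344 and 368 in ime4-/- in YPD, against 301, 338 and 326 in WT in SPO and 398 and 391 in WT in YPD. It rose by 1.38 in ime4-/- and fell by 0.30 in WT, and the WT media differed by less than either did from ime4-/- in SPO. UME6, which holds early meiotic genes off in vegetative cells, rose by 1.48 in ime4-/- and 0.18 in WT. UME1, of the Rpd3 deacetylase complexes, had the responses -1.27 in ime4-/- and -1.13 in WT (interaction adjusted p = 0.146). RME1, the IME1 repressor of cells with 1 mating type, went the other way: it responded by -0.11 in ime4-/- and 1.32 in WT. WT in YPD (47.6 and 45.8) stood under the other groups (113 to 157).

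The lists of genes that act later in meiosis showed no common direction, but many of their members were not above background throughout. On all arrays, 16 of 32 recombination and synapsis genes and 28 of 42 middle sporulation genes lay above it. Of all tested sets 5109 of 5359 did so. The recombination and synapsis genes had median responses of 0.67 in ime4-/- and 0.53 in WT. The middle sporulation genes had 0.32 in ime4-/- and 0.39 in WT, so the WT response was small in both lists. Whether the members above background share a direction was not tested. For comparison, 29.5% of all tested sets were positive and 34.6% negative. Of 32 recombination and synapsis genes 7 were positive and 9 negative, with a median of -0.03 whose sign turned with centring and with background as the floor. Of 42 middle sporulation genes 11 were positive and 10 negative, and their median turned with quantile normalization. CDA2, a deacetylase that makes spore wall chitosan, had the largest positive interaction of these. It read 143 and 138 in ime4-/- in SPO and 9.0 and 5.8 in ime4-/- in YPD, against 27.9, 28.1 and 26.0 in WT in SPO and 10.3 and 8.9 in WT in YPD. It rose at least 15.3-fold in ime4-/- and 2.74-fold in WT, where 1 of 2 YPD arrays lay above background. REC104, which acts in the cutting of meiotic DNA, also rose more in ime4-/-, at least 3.05-fold, against 1.82-fold in WT.

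The lists of DNA replication and of mitotic cyclins and division leaned towards a smaller fall in ime4-/-, while the kinetochore list leaned the other way. Of 36 kinetochore genes 4 were positive and 17 negative, with median responses of 0.35 in ime4-/- and 0.53 in WT. Over all tested sets 29.5% were positive and 34.6% negative. The share of the kinetochore list past the threshold, 58.3%, was under the 64.1% of all tested sets. Of 8 core histone genes 3 were positive and none negative, with a median interaction of -0.07. Of 43 replication genes 24 were positive and 2 negative, with medians of -0.45 in ime4-/- and -0.78 in WT. POL2, the catalytic subunit of DNA polymerase epsilon, was reversed: it read 349 and 361 in ime4-/- in SPO and 140 and 128 in ime4-/- in YPD, against 100, 90.5 and 93.2 in WT in SPO and 165 and 160 in WT in YPD. POL30, the sliding clamp, fell by 1.25 in ime4-/- and 2.70 in WT. Of 19 genes of mitotic cyclins and division 13 were positive and 1 negative, and NET1, an anchor of the phosphatase Cdc14 in the nucleolus, rose by 0.41 in ime4-/- and fell by 0.73 in WT. Of 14 genes of G1 cyclins and Start 7 were positive and 3 negative, and the G1 cyclin gene CLN3 rose by 0.33 in ime4-/- and fell by 0.76 in WT. Outside the lists, RFU1, an inhibitor of a deubiquitinating enzyme, rose by 1.73 in ime4-/- and fell by 0.68 in WT. LAA1, of vesicle traffic, rose by 1.79 in ime4-/- and fell by 0.22 in WT, and the cyclin-like gene CLG1 rose by 2.03 and 0.55.

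Responses in ime4-/- were smaller on the whole, so each gene was also set against a common scaling. A line fitted by total least squares, which passes through the mean of both responses, had a slope of 0.79, and 0.788 to 0.794 when any array was left out. A second contrast was the ime4-/- response minus this slope times the WT response, with no intercept. It passed the threshold for 3081 sets (57.5%), 1491 (27.8%) higher and 1590 (29.7%) lower. The classes above imply a departure from this scaling by their limits, so their share past the threshold is not given. One factor for all genes thus left 57.5% of the tested sets apart from it.

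Lists sorted differently on this scale. Ribosome assembly stayed apart, with 40 of 48 processome genes and 50 of 60 large subunit factors higher than scaled, as did the ribosomal proteins with 54 of 75 and 36 of 52. The gluconeogenesis list did not: 4 of 17 were higher and 5 lower, with a median of 0.09 log2, although FBP1 (-0.90) and MDH2 (1.38) lay on either side. Beta-oxidation and peroxisome genes rose more than scaled, with 16 of 32 higher and 3 lower. The sulfur list had 29 of 36 higher and 3 lower, and the chaperones 19 of 31 higher and 3 lower, among them HSP12, a small stress protein that rose by 3.99 in ime4-/- and 3.27 in WT. Mitochondrial ribosomal proteins (42 of 66 lower, 5 higher) and proteasome subunits (23 of 30 lower, 2 higher) were mostly lower than scaled. The core proteasome gene SCL1 fell by 1.14 in ime4-/- and 0.31 in WT.

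Counting responses of at least 2-fold in either genotype, 2555 sets changed and 2000 of these passed the interaction threshold. The response was the larger in ime4-/- for 334 of them and in WT for 1666.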

How the data were processed

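Per the labels, biotinylated cDNA was made from 600 ng total RNA and hybridized to Affymetrix arrays. The deposited values are intensity values on a linear scale, made with RMA per the submitters' processing notes; no source used here names the software or its settings. RMA aligns the arrays, so a shift of all transcripts together cannot be seen. Gene names are those of the platform annotation, updated through RefSeq's gene table. Of 9676 probe sets, 5359 named a yeast gene and entered the test, 1413 of another species gave the background, and 2865 without a gene name and 39 reporters were left out.

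From these, log2 was taken with no offset, and group means were fitted with limma 3.58.1 in R 4.3.3 (5 residual and 4.07 prior degrees of freedom). A gene at or below background on every array of a group has a fold against that level, written "at least". The class limits are 2-fold for the interaction and a ratio of 0.25. Precision is limited by 2 or 3 arrays per group. The procedure was tested on simulated data.

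Named genes were, per class and direction, the 4 largest interactions among genes above background on all arrays whose probe sets carry no shared-sequence ending, the 5 largest in each direction, and of each list up to 4 members with the smallest p and the member closest to 0. Where a gene had more than 1 probe set, the brightest was named. Members, lists and rules were chosen with earlier results of these data known. The alternatives were quantile normalization, centring, leaving out the dimmest 25% of sets, background as a floor, an intensity trend, the replicate number as a block, each array left out in turn, and other class limits.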

Additional observations from a re-analysis of the deposited data

Results flagged for a closer look

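The responses of the genotypes differed by the test of the interaction itself in 3433 probe sets, and 67 were of the reversed class. Among those with the largest interactions, ime4-/- rose and WT fell for RFU1 (2.41 log2), MAK5 (2.38), PRP43 (2.35), ROK1 (2.27), POL2 (2.18) and BUD22 (2.07). In STE3 (-2.40) and SAG1 (-2.22) ime4-/- fell and WT rose. The report gives further reversed genes. Of the 2865 probe sets without a gene name, which the report does not use, 243 lay above background on all 9 arrays, and 47 of these passed the interaction threshold in a fit of their own, 13 of them by at least 2-fold.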

How the results depend on the processing

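The count of sets past the interaction threshold was 2850 to 3501 under all settings, with 3148 to 3338 when 1 array was left out, and the split of directions moved by less than 10 percentage points. With centring, 1779 were positive and 1595 negative. The shared slope was 0.788 to 0.795. Class sizes depend on their limits. With 1.5-fold in place of 2-fold there were 1512 classed sets: 924 damped, 247 lost, 140 reversed, 105 stronger and 96 gained. With a ratio of 0.1 there were 42 lost and 11 gained. Without the dimmest 25% of sets, where fewer genes were tested, there were 17 stronger and 15 gained. Of 535 classed sets 365 kept their class in each of 14 settings, 11 of 25 in the gained class. With the replicate number as a block 3250 sets passed. The labels do not pair the arrays by number, and deviations of same-numbered arrays correlated with r of -0.0204 to 0.0314. Of the called interactions of the named genes, that of MFA1 turned to -0.1843 (adjusted p = 0.0555) with quantile normalization, and no other was lost or turned in the settings that measured it. The interaction of HMRA1, not past the threshold, became -0.7909 (adjusted p = 7.17e-05) with background as the floor.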

Other observations

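Long genes were frequent among those that rose in ime4-/- with little change or a fall in WT, a pattern noticed after the values were seen. Of 181 sets of genes with an annotated length over 4000 bases, 13 (7.18%) were reversed or gained, all with a positive interaction, against 1.72% of all tested sets. They include REA1 (14733 bases), the acetyl-CoA carboxylase gene ACC1, which rose by 1.66 in ime4-/- and 0.36 in WT, the fatty acid synthase gene FAS2, which rose by 0.95 and fell by 0.38, and the myosin gene MYO2, with 1.60 and -0.13. The median interaction of all long genes was 0.09, against -0.05 over all sets. The part of transcript length or RNA quality in this was not tested.

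The 148 tested sets on chromosome III, which carries the mating-type locus, had a median difference between ime4-/- and WT of 0.18 log2 in SPO and 0.16 in YPD. The medians of the other chromosomes lay between -0.11 and 0.04. The median interaction on chromosome III was 0.07, the highest of the 16 chromosomes, and the others lay between -0.11 and 0.02.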
